A study of Mus musculus with 25 samples.

Results

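Hepatocytes labelled as deleted for Stat3, from mice fed a DDC diet for 1 week, were compared with hepatocytes from mice that had received a GFP plasmid, over all genes of the hepatocyte count table. The libraries were chosen by their sample names: 3 DDC STAT3KO libraries and 2 GFP plasmid libraries, which are 5 of the 13 hepatocyte libraries and 5 of the 25 samples in the series. Of the 18668 genes in the table, 14339 passed the filter on low counts and were tested. The question the contrast addresses is which part of the hepatocyte response to this injury is present when STAT3, the transcription factor downstream of IL-6 and gp130, has been removed from the hepatocyte.

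All samples were labelled strain C57BL/6J 129SV. Age and sex were not stated. The DDC STAT3KO mice carried floxed Stat3 and received AAV-TBG-Cre for 2 weeks and the DDC diet for 1 week. AAV-TBG-Cre is an adeno-associated virus in which the thyroxine-binding globulin promoter, active in hepatocytes, drives Cre recombinase, so that deletion is directed at hepatocytes and is complete only as far as the virus reached them. The GFP plasmid mice were WT and carried a GFP plasmid, given by hydrodynamic tail vein injection (HTVi), for 1 week. These groups differed at once in diet, Stat3 allele, virus and plasmid injection, and the parts these played cannot be told apart in this contrast. A pair of further groups bracketed it. The DDC group (2 libraries) carried the same floxed Stat3 and ate the same diet but received AAV-TBG-GFP in place of Cre. The IL-6 STAT3KO group (3 libraries) carried floxed Stat3, received AAV-TBG-Cre for 2 weeks, and held an IL6 plasmid, given by HTVi, for 1 week with no DDC diet. None of the 25 samples was labelled as hepatocytes of Cre-treated floxed mice with neither diet nor plasmid. Livers were perfused and cells were sorted by flow cytometry before RNA extraction, and each library was made from bulk RNA. No label ties a replicate to an animal of its own. The p-values below therefore measure only the spread between these samples, which may be technical.

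DDC is a dihydrocollidine derivative that blocks the last step of haem synthesis at ferrochelatase, fills bile ducts with porphyrin plugs, and leads hepatocytes to build cytoplasmic inclusions of keratin 8, keratin 18 and p62 known as Mallory-Denk bodies. Injured hepatocytes in this model lower their metabolic genes and take on genes of biliary and progenitor cells, a change often called reprogramming. Several stress pathways are known to run beside it: NRF2, which senses electrophiles and drives glutathione and NADPH enzymes; ATF4, which answers amino acid and haem shortage; NF-kB, which drives chemokines; and interferon signalling. IL-6 acts through gp130 and STAT3 and is the main driver of the hepatic acute phase response, the secretion of serum amyloid A, fibrinogen, haptoglobin and related plasma proteins.

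Promoter stretches of some members of the pathway lists, each holding the motif of its list, are shown first, so that each can be read beside its values. Not all of these genes were called: Isg15, Gbp7 and Steap4 did not pass against GFP plasmid. The stretches come from the RefSeq promoter table of build GRCm38.p6. Each is written 5′ to 3′ on the strand of its gene, and capitals mark the match to the motif named. The searched motifs were TGACNNNGC for NRF2, TTCNNNGAA for STAT factors, TTTCNNTTT for interferon-responsive elements and TGATGNAA for ATF4, each on both strands, and N stands for any base. The first pair holds the NRF2 motif upstream of Txnrd1, encoding thioredoxin reductase (chr10:82859074-82859162, plus strand), and Ugdh, encoding a glucuronate-forming enzyme (chr5:65435926-65436014, minus strand).
Txnrd1: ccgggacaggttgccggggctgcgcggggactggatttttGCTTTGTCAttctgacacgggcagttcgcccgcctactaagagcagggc
Ugdh: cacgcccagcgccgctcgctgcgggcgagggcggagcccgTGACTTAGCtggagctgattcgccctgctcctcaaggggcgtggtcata
The next 3 hold the STAT motif upstream of acute phase genes: Fga, encoding the fibrinogen alpha chain (chr3:83025903-83025967, plus strand), Itih4, encoding an inter-alpha-trypsin inhibitor heavy chain (chr14:30886385-30886473, plus strand), and Steap4, encoding a metalloreductase (chr5:7960316-7960404, plus strand).
Fga: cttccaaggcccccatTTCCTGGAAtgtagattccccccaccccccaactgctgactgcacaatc
Itih4: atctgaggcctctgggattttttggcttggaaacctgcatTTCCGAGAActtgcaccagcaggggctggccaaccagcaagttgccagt
Steap4: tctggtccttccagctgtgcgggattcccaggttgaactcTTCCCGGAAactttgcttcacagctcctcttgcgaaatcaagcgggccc
A pair of interferon-responsive genes follows: Isg15, encoding a ubiquitin-like modifier (chr4:156200841-156200929, minus strand), and Gbp7, encoding a guanylate-binding protein (chr3:142530243-142530331, plus strand).
Isg15: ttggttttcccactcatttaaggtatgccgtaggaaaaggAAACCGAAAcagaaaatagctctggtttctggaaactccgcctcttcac
Gbp7: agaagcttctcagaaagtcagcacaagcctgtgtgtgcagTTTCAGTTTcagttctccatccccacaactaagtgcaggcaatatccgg
The last pair holds the ATF4 motif upstream of Fgf21, encoding a stress hormone (chr7:45615582-45615669, minus strand), and Slc7a11, encoding the cystine transporter (chr3:50443632-50443719, minus strand).
Fgf21: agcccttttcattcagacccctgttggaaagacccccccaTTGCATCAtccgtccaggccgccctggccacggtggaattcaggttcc
Slc7a11: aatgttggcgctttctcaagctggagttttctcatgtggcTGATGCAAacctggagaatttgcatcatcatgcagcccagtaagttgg
In the 300-base promoters of the same table, the NRF2 motif was present in 12.4% of 32851, the STAT motif in 8.30%, the interferon motif in 10.6% and the ATF4 motif in 3.97%. Counted by gene over 27025 genes these shares were 14.0%, 9.55%, 12.1% and 4.51%. Among the tested members of the pathway lists that matched the table, the NRF2 motif was in 10 of 31 NRF2 targets, the STAT motif in 6 of 22 acute phase genes, the interferon motif in 23 of 37 interferon targets and the ATF4 motif in 9 of 24 ATF4 targets. A match describes the letters in these windows and does not show that a factor binds there.

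The 5 libraries held 13625040 to 18233345 counts assigned to genes. DDC STAT3KO replicate 3 stood apart from its group. On the first 2 principal components of all 13 hepatocyte libraries, which carried 39.6% and 23.1% of the variance, it lay at -26.6 and -13.0, while replicates 1 and 2 lay at -1.31 and -45.8 and at 1.32 and -47.3, beside the DDC libraries, and the GFP plasmid libraries lay at -46.2 and 46.2 and at -45.7 and 45.7. Correlation of log-scale values between replicates was 0.951 to 0.973 in the DDC STAT3KO group against 0.989 in the GFP plasmid group. The summed level of 11 Kupffer cell markers (the resident macrophages of the liver) was 362, 454 and 58.95 CPM in the DDC STAT3KO libraries against 32.8 and 41.9 CPM in the GFP plasmid libraries. CPM is the count of a gene scaled to a common library size. Replicate 3 was thus the DDC STAT3KO library nearest to the controls in macrophage transcripts as well. The summed level of 14 stellate cell and fibroblast markers was 328, 507 and 164 CPM against 143 and 127 CPM, and that of 12 sinusoidal endothelial markers 189.9, 505 and 228 CPM against 272 and 316 CPM. The 12 hepatocyte markers summed to 95488, 99891 and 125869 CPM against 97109 and 99072 CPM, a sum in which Alb has the largest share. In 11 of the 12 the fold change was negative (median log2 fold change -0.60, with 1 called lower), and without replicate 3 the median was -0.79 with 3 called lower. Of the 11 Kupffer cell markers 9 rose, 10 without replicate 3, 3 without replicate 1 or 2, and none without either control. Many results below, though not all, are therefore given with and without replicate 3. Where the genes of other cell types move with a result their levels are given beside it. In bulk RNA, fewer cells of a type and less RNA per cell cannot be told apart.

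**Figure D1:**
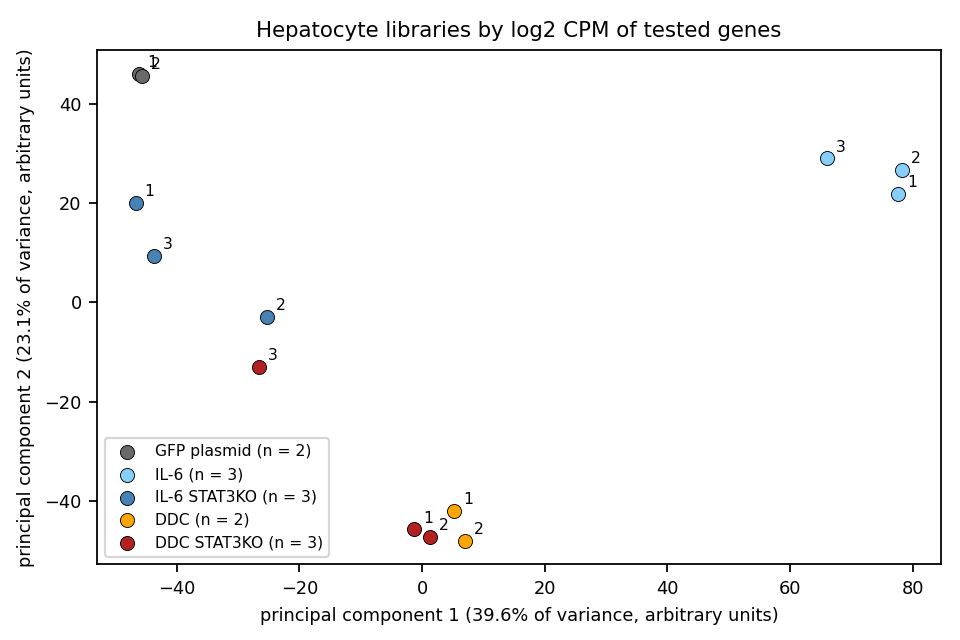
Position of the 13 hepatocyte libraries on the first 2 principal components of log-scale expression (axes in principal component units, with the percent of variance carried by each), one point per library and one colour per group. DDC STAT3KO replicates 1 and 2 lie with the DDC libraries, while DDC STAT3KO replicate 3 lies between them and the GFP plasmid libraries, nearest to IL-6 STAT3KO replicate 2.

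**Figure D2:**
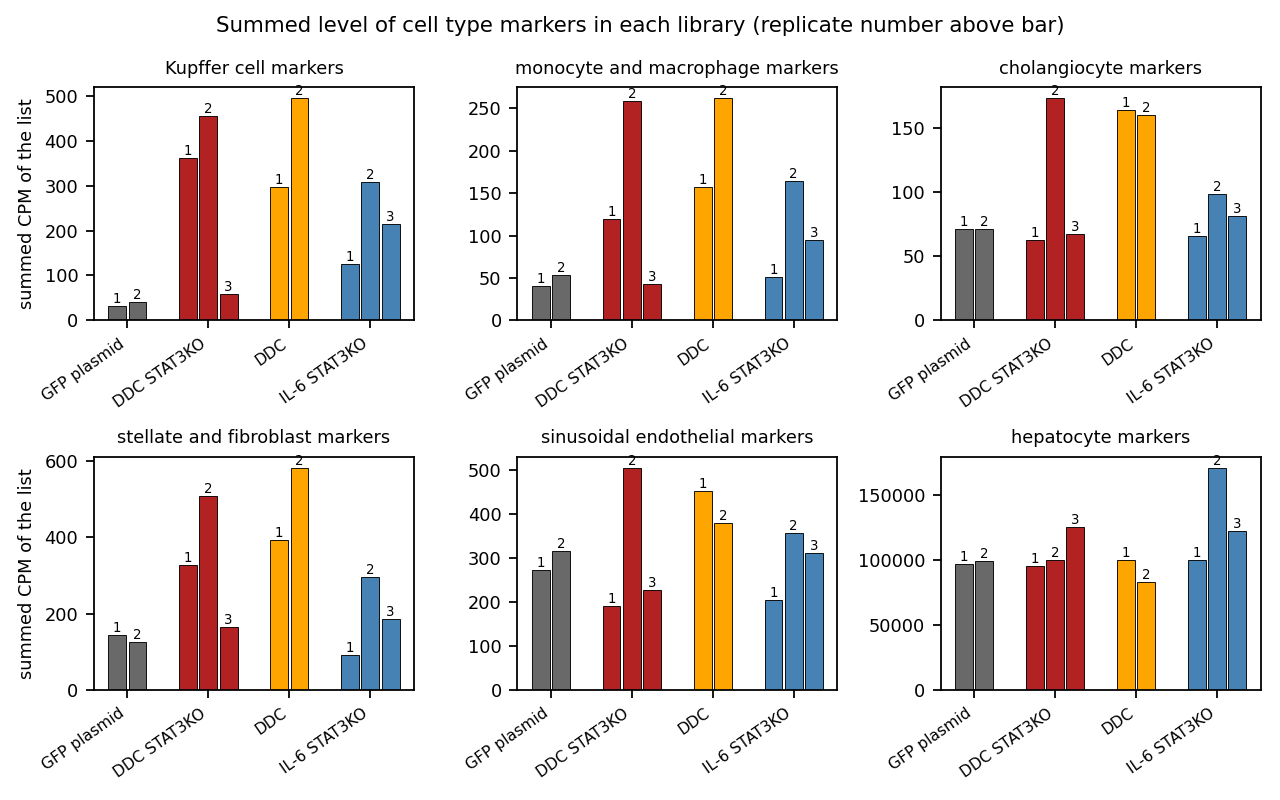
Summed level of 6 lists of cell type markers in each library (vertical axis in CPM, starting at 0), one bar per library with its replicate number above it, in the GFP plasmid, DDC STAT3KO, DDC and IL-6 STAT3KO groups. Kupffer cell markers are 59.0 CPM in DDC STAT3KO replicate 3 and 362 and 454 CPM in replicates 1 and 2, against 32.8 and 41.9 CPM in the GFP plasmid libraries.

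Stat3 itself (ENSMUSG00000004040, chr11:100885098-100939540, minus strand) was at 109 and 98.8 CPM in the GFP plasmid libraries and at 62.03, 56.2 and 87.2 CPM in the DDC STAT3KO libraries. All 3 DDC STAT3KO values lay below both controls, replicate 3 nearest to them. The log2 fold change was -0.60 ± 0.22 (SE), and it did not pass in edgeR's quasi-likelihood test (adjusted p = 0.0883), while without replicate 3 it was -0.81 (adjusted p = 0.0166). In the DDC group Stat3 stood at 149.995 and 112 CPM, again above every DDC STAT3KO library, and in the IL-6 STAT3KO group at 116, 95.99 and 116 CPM, which overlapped the GFP plasmid range. Loss of the gene is thus not seen at the level of counts in the libraries labelled IL-6 STAT3KO, and each STAT3KO group is named here by its label. A gene-level count also takes reads from exons outside the deleted part and from cells other than hepatocytes, so it gives an incomplete check of the deletion. Socs3, the feedback inhibitor that STAT3 induces, was at 11.6 and 11.96 CPM in controls, at 9.53, 10.99 and 6.13 CPM in DDC STAT3KO libraries and at 32.6 and 15.1 CPM in DDC libraries. The DDC STAT3KO values lay below both control values and both DDC values (log2 fold change against GFP plasmid -0.40 ± 0.33, adjusted p = 0.43). Il6 transcripts were at 0 and 0.0688 CPM in controls and at 0 in all 3 DDC STAT3KO libraries. The receptor chains Il6ra (56.8 and 139 CPM in controls, 64.6, 46.6 and 128 CPM in DDC STAT3KO) and Il6st, encoding gp130 (183 and 181 CPM and 141, 214 and 171 CPM), overlapped between the groups and did not pass (adjusted p = 0.694 and 0.903).

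Between DDC STAT3KO and GFP plasmid hepatocytes, 2278 of 14339 genes (15.9%) passed at an adjusted p below 0.05, 1219 of them higher (8.5%) and 1059 lower (7.39%). The median log2 fold change over all tested genes was 0.06. Ly6d, Sprr1a and Anxa2 were among the largest rises, and Hsd3b5, Serpina4-ps1 and Ces3b among the largest falls. Without DDC STAT3KO replicate 3 the counts were 1908 higher and 1522 lower. They rested on both controls: with GFP plasmid replicate 1 left out 209 were higher and 273 lower, and with replicate 2 left out 211 and 283. In those fits the lone control is assumed to vary like the other groups. Fitting only the 5 compared libraries, which leaves 3 degrees of freedom, called 409 higher and 386 lower. Leaving out DDC STAT3KO replicate 2 gave 860 higher and 675 lower. Genes said below to hold in every fit kept their call with each of the 5 libraries left out in turn. A pair of values without either control gives the result with GFP plasmid replicate 1 and then with replicate 2 left out.

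Ly6d (chr15:74762056-74763620, minus strand), encoding a GPI-anchored surface protein, was at 0 and 0 in the GFP plasmid libraries and at 256, 54.5 and 16.01 CPM in the DDC STAT3KO libraries, at least 1203-fold higher when controls were set to the limit of 3 counts over the group (edgeR adjusted p = 0.00301). Sprr1a (chr3:92483952-92485895, minus strand), encoding a cornified envelope protein of squamous epithelium that is also induced in injured tissue, was at 0 and 0 in controls and at 136, 86.4 and 27.7 CPM, at least 913-fold higher (adjusted p = 0.000745). The groups did not overlap for either gene, replicate 1 was the highest and replicate 3 the lowest, and both calls held in every fit. Anxa2, encoding a membrane-binding annexin, went from 4.54 and 4.33 CPM to 539, 201 and 109.98 CPM (log2 fold change 5.99 ± 0.78, adjusted p = 0.000957). Haus8, encoding a spindle augmin subunit, went from 0.9598 and 1.79 to 66.2, 38.2 and 20.3 CPM (4.92 ± 0.57, adjusted p = 0.000561). These also held in every fit, and every DDC STAT3KO library lay above every control. Tlr2, encoding a receptor for bacterial lipopeptides, rose by 4.82 on the log2 scale, from 1.86 and 1.03 to 15.9, 24.6 and 83.3 CPM, and here replicate 3 was the highest library (adjusted p = 0.00556, 0.0547 and 0.0735 without GFP plasmid replicate 1 and replicate 2). Mfge8, encoding a bridging protein for the uptake of dying cells, was at 102, 94.8 and 4.86 CPM against 2.05 and 2.75 CPM. Replicate 3 sat near the controls for it (log2 fold change 4.81 ± 1.17, adjusted p = 0.0185; 0.147 and 0.123 without either control).

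Hsd3b5 (chr3:98618634-98630252, minus strand), encoding a male-specific hydroxysteroid dehydrogenase, fell the most among the named genes, from 325 and 151 CPM in controls to 0.242, 0.454 and 0.524 CPM (log2 fold change -9.21 ± 0.97, adjusted p = 0.000446). Serpina4-ps1, a serpin pseudogene, fell from 144 and 851 to 2.32, 5.95 and 0.299 CPM (-7.39 ± 1.21, adjusted p = 0.00296). Ces3b, encoding a carboxylesterase, fell from 718 and 754 to 49.9, 39.4 and 42.7 CPM (-4.06 ± 0.35, adjusted p = 0.000209). Every control lay above every DDC STAT3KO library for these 3 genes, and the calls held in every fit. Among the genes called, those with the greatest gain of mean level were Krt8, Hpx, Hp, Cyp2a5, Gstm1 and Gstm3, and those with the greatest loss were Mup3, Serpina3k, Cyp2e1, Apoa2, Mug1 and Car3. Mug1, encoding a broad protease inhibitor of plasma, fell from 5962 and 5888 to 1557, 1889 and 2330.4 CPM (-1.62 ± 0.29, adjusted p = 0.00492, held in every fit). Car3, encoding a carbonic anhydrase, was at 5003 and 4326 CPM in controls and at 337, 92.5 and 1574 CPM, and its call (-2.80 ± 0.85, adjusted p = 0.043) was lost without DDC STAT3KO replicate 1 or 2 (adjusted p = 0.118 and 0.0623) and without GFP plasmid replicate 1 or 2 (0.162 and 0.132). The lowest value was in replicate 2 and the highest in replicate 3. Many of the named genes belong to families of near-identical copies (Mup, Hsd3b, Gsta, Gstm, Cyp2, Saa, Serpina and Gbp genes). How reads shared between copies were counted was not stated, so the split between members of a family is uncertain.

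**Figure D3:**
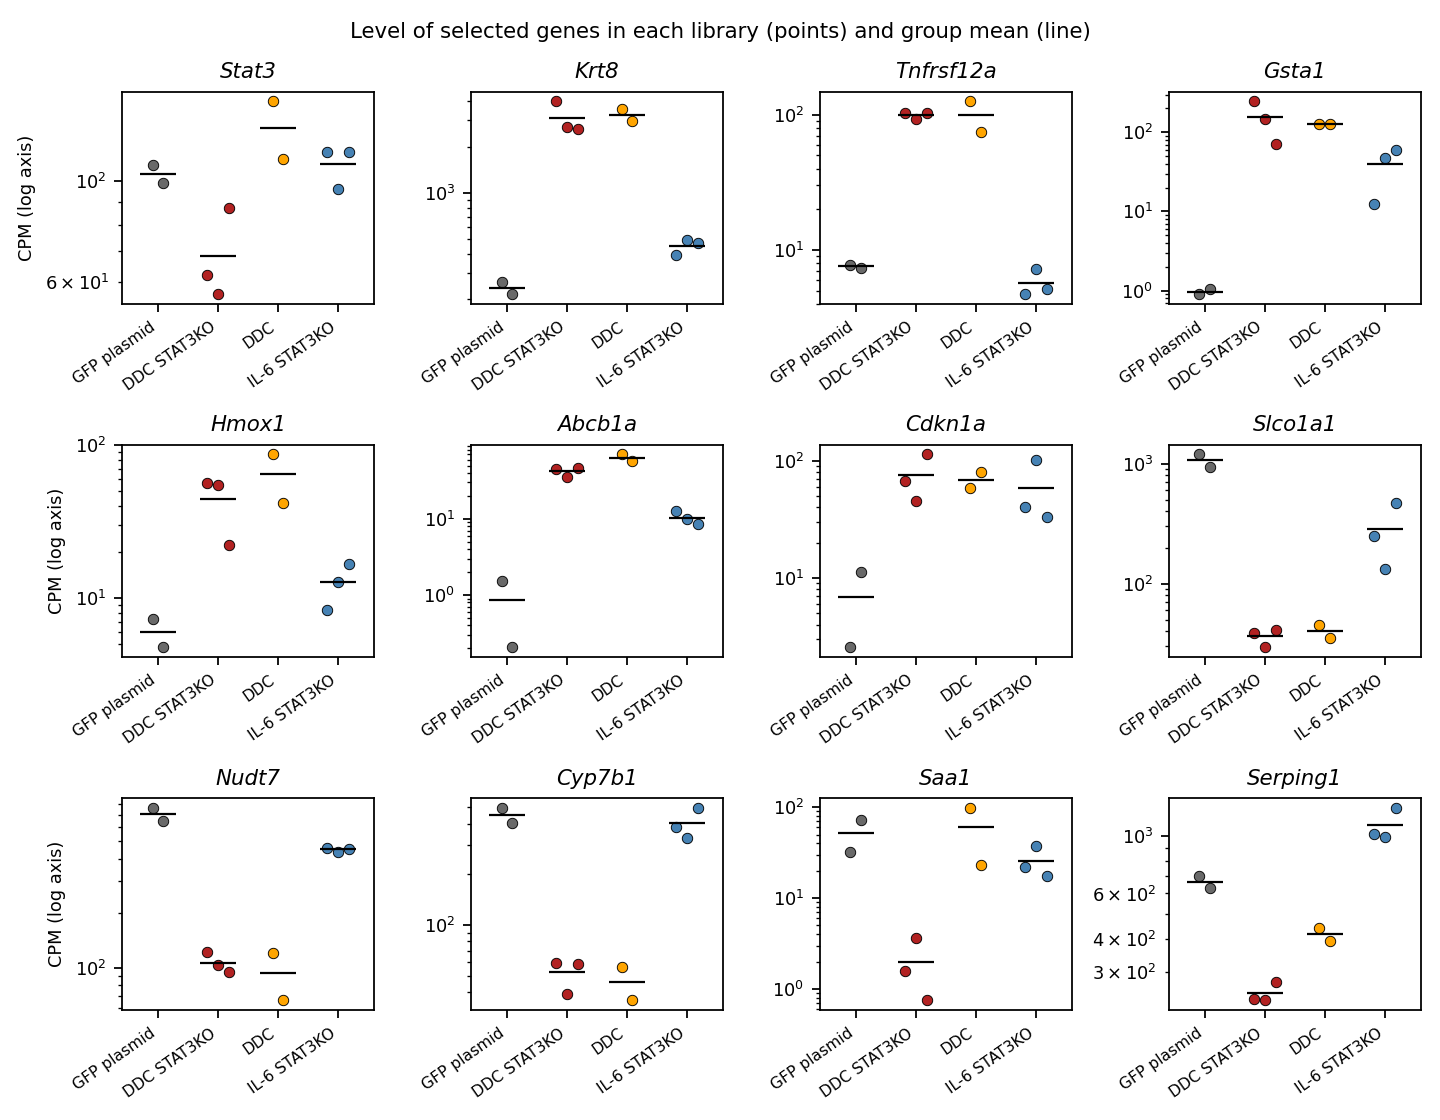
Level of 12 genes (CPM, log axis) in the GFP plasmid, DDC STAT3KO, DDC and IL-6 STAT3KO hepatocyte libraries, one point per library, with a line at each group mean. Krt8 stands at 4004, 2713 and 2616 CPM in the DDC STAT3KO libraries against 259 and 216 CPM in the GFP plasmid libraries, while Slco1a1 stands at 38.5, 29.3 and 41.2 CPM against 1199 and 950.03 CPM.

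**Figure D4:**
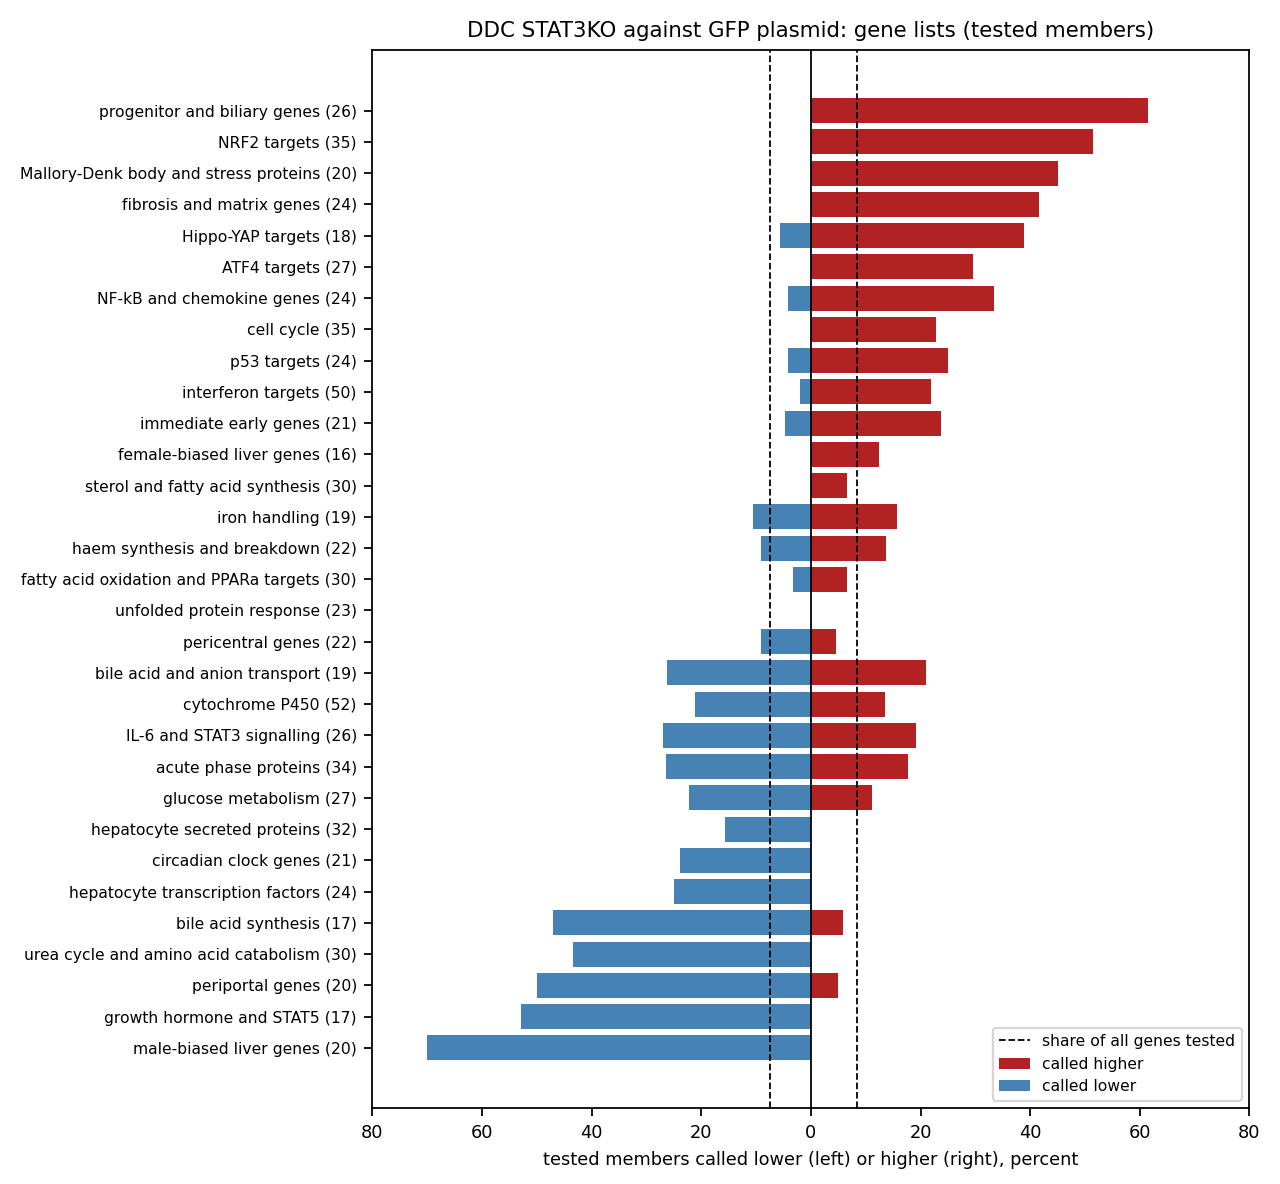
Percent of the tested members of 31 gene lists called higher (right) or lower (left) in DDC STAT3KO than in GFP plasmid hepatocytes, with dashed lines at the share over all tested genes (8.5% higher, 7.39% lower). Progenitor and biliary genes and NRF2 targets lie above the line for higher calls, and male-biased and growth hormone genes above that for lower calls.

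Haem synthesis is the pathway DDC acts on. Alas1, the rate-limiting enzyme that is induced when haem runs short, was at 519 and 1572 CPM in controls and at 554, 1128 and 2904 CPM in DDC STAT3KO libraries. The groups overlapped, replicate 3 was the highest library of the 5, and the gene did not pass (log2 fold change 0.55 ± 0.60, adjusted p = 0.557). Its direction turned without replicate 3 (-0.32) and without GFP plasmid replicate 1 (-0.06). Fech, encoding ferrochelatase, was at 208 and 198 CPM in controls and lower in all 3 DDC STAT3KO libraries at 117, 145 and 188 CPM, and it passed only when replicate 3 was left out (adjusted p = 0.158 with all libraries, 0.0266 without it). Of the 22 haem genes tested, 3 rose and 2 fell with a median log2 fold change of -0.12, against 8.5% and 7.39% of all genes, with 1 and 1 without DDC STAT3KO replicate 1 and none without either control. Cpox, encoding coproporphyrinogen oxidase, fell from 275 and 293 to 98.998, 89.97 and 166 CPM (-1.27 ± 0.26, adjusted p = 0.00878). Hmox1, the enzyme that breaks haem down, rose from 7.29 and 4.74 to 56.7, 54.2 and 21.995 CPM (2.88 ± 0.56, adjusted p = 0.00712). Neither overlapped with the controls, and with GFP plasmid replicate 1 or 2 left out their adjusted p was 0.0553 and 0.07 for Cpox and 0.0547 and 0.0881 for Hmox1. Hpx, encoding the plasma haem carrier haemopexin, was at 7425, 7021 and 5829 CPM against 3325 and 3404 CPM (1.01 ± 0.31, adjusted p = 0.0477), a call that ended without any 1 of DDC STAT3KO replicates 1 and 2 and both controls (0.0914, 0.0833, 0.261 and 0.238). Alas2, the erythroid form of the enzyme, fell from 161 and 175 to 17.5, 19.5 and 13.2 CPM (-3.32 ± 0.33, adjusted p = 0.000255) and held in every fit. It is a marker of red cell precursors, whose part in the result was not tested. The haemoglobin genes Hbb-bs and Hba-a1 were at most 0.138 CPM in all 5 libraries.

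Among 19 genes of iron handling, 3 rose and 2 fell (median 0.34), beside 8.5% and 7.39% over all genes. The counts were 1 and 1 without DDC STAT3KO replicate 1, and 2 and 1 without replicate 2. Fewer were called with either control left out. Lcn2, encoding the siderophore binder lipocalin 2, rose from 1.79 and 13.96 to 130.2, 101 and 72.2 CPM (3.68 ± 0.84, adjusted p = 0.0142; 0.0887 without GFP plasmid replicate 1), and the controls differed widely between themselves. Tfr2, encoding the hepatocyte iron sensor transferrin receptor 2, fell from 501 and 502 to 231, 179.6 and 242 CPM (-1.21 ± 0.23, adjusted p = 0.00567; 0.052 and 0.0521 without either control). Hamp, encoding hepcidin, the hormone that closes iron export and that STAT3 can induce, was at 1247 and 1219.6 CPM in controls and at 783, 765 and 1062 CPM. All 3 DDC STAT3KO values lay below both controls, but the gene did not pass (adjusted p = 0.387).

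The NRF2 targets that passed were all higher. Of 35 tested, 18 rose, none fell and 17 did not pass, and 4 had a negative fold change, with a median log2 fold change of 1.35 against 0.06 over all genes. Without DDC STAT3KO replicate 1, 2 or 3 the number was 12, 16 or 21 (with 1 fall in the last), and without GFP plasmid replicate 1 or 2 it was 6 in each case. Gsta1, encoding an alpha-class glutathione transferase, went from 0.896 and 1.03 to 246, 148 and 70.6 CPM (7.32 ± 0.84, adjusted p = 0.000506). Gstm3, a mu-class transferase, went from 72.7 and 53.5 to 1471, 3078 and 1857 CPM (5.08 ± 0.75, adjusted p = 0.00194). Srxn1, encoding sulfiredoxin, which repairs oxidised peroxiredoxins, rose from 34.1 and 36.6 to 775, 366 and 491 CPM (3.94 ± 0.49, adjusted p = 0.000747). Pgd, an NADPH-forming enzyme of the pentose phosphate pathway, rose from 36.02 and 31.8 to 323, 173 and 131 CPM (2.63 ± 0.34, adjusted p = 0.000957). Nqo1, a quinone reductase, rose from 5.31 and 5.29 to 24.6, 27.3 and 24.2 CPM (2.26 ± 0.31, adjusted p = 0.00133). Every DDC STAT3KO library lay above every control for these 5 genes, and their calls held in every fit, as did that of the efflux pump gene Abcc4 (1.28 and 1.17 to 19.2, 15.9 and 8.304 CPM, 3.56 ± 0.39).

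Of the genes whose promoters are printed above, Txnrd1 was at 151 and 120.3 CPM in controls and at 257, 295 and 322 CPM in DDC STAT3KO libraries (1.10 ± 0.24, adjusted p = 0.0116; 0.0646 and 0.134 without GFP plasmid replicate 1 and 2). Ugdh was at 192 and 203 CPM in controls and at 798, 502 and 487 CPM (1.59 ± 0.43, adjusted p = 0.0271; 0.0698 without DDC STAT3KO replicate 1, 0.176 and 0.153 without either control). The groups were apart for both genes. The NRF2 motif was in 6 of the 17 NRF2 targets called higher that matched the promoter table and in 4 of the 14 others. Gclm, encoding the modifier subunit of glutamate-cysteine ligase, carries the motif and did not pass (254 and 232 CPM in controls, 204, 166 and 222 CPM, adjusted p = 0.39). Sqstm1, encoding p62, both a target and a partner of this pathway, was at 1312, 632 and 1098 CPM against 395 and 311 CPM (1.52 ± 0.38, adjusted p = 0.0199; 0.0507 without DDC STAT3KO replicate 1, 0.111 and 0.169 without either control).

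Cytochrome P450 genes, which carry out drug and steroid oxidation with haem as cofactor, went both ways. Of 52 tested, 7 rose and 11 fell (median -0.19), beside 8.5% and 7.39% over all genes. Without replicate 3 the split was 3 and 14, and without GFP plasmid replicate 1 or 2 it was 1 and 0, and 1 and 3. Without DDC STAT3KO replicate 2 there were 5 and 5. Cyp2c55 rose from 1.5997 and 0.688 to 85.1, 127 and 280.1 CPM (7.14 ± 0.94, adjusted p = 0.000969, held in every fit). Cyp2b10, the classic target of the receptor CAR, was at 7.42 and 10.5 CPM in controls and at 104, 91.9 and 1367 CPM (5.86 ± 1.38, adjusted p = 0.016; 0.142 and 0.118 without either control). Replicate 3 carried by far the highest level of it, and likewise of Cyp2b9 (3.34, 0.136 and 138 CPM, 0 in both controls) and of Cyp1a1 (1.69, 1.997 and 57.8 CPM against 0.9598 and 0.413 CPM). Without replicate 3 Cyp2b10 still passed (3.44, adjusted p = 0.0081), whereas Cyp2b9 and Cyp1a1 did not (0.066 and 0.0905). Among the falls, Cyp2c23, an arachidonate epoxygenase, went from 587 and 490.5 to 67.3, 147 and 157 CPM (-2.12 ± 0.42, adjusted p = 0.00789; 0.0588 without GFP plasmid replicate 1). Cyp2f2, a periportal isoform, fell from 955 and 898 to 192, 296 and 448 CPM (-1.57 ± 0.33, adjusted p = 0.0104; 0.0727 and 0.0618 without either control). Cyp2e1, the ethanol-oxidising pericentral isoform, was at 8794 and 8829.7 CPM in controls and at 1591, 1343 and 4482 CPM, replicate 3 being the nearest to controls. Its call (-1.83 ± 0.53, adjusted p = 0.0366) was lost without DDC STAT3KO replicate 1 or 2 (0.102 and 0.098) and without either control (0.148 and 0.143). Cyp3a11, the main steroid-inducible isoform, was at 6371 and 3628 CPM in controls and at 8854, 10153 and 10388 CPM and did not pass (adjusted p = 0.208).

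Genes of bile acid synthesis were among the falls. Of 17 genes tested, 8 fell and 1 rose (median -0.75), and 3 falls were called without GFP plasmid replicate 1 and 3 without replicate 2. Cyp7b1 (chr3:18071950-18243338, minus strand), the oxysterol hydroxylase of the alternative pathway, fell from 493 and 404 to 59.8, 38.7 and 58.6 CPM (-3.10 ± 0.40, adjusted p = 0.000951), with the groups far apart and the call held in every fit. Cyp7a1, the rate-limiting enzyme of the classic pathway, was at 103 and 636 CPM in controls, which differed widely, and at 32.2, 61.4 and 5.99 CPM in DDC STAT3KO libraries (-3.47 ± 0.86, adjusted p = 0.0199; 0.0592 without DDC STAT3KO replicate 1 and 0.298 without GFP plasmid replicate 2). Klb, encoding the co-receptor of FGF15 that restrains Cyp7a1, fell from 38.97 and 27.3 to 8.71, 12.7 and 18.1 CPM (-1.34 ± 0.29, adjusted p = 0.0114; 0.119 without GFP plasmid replicate 1). Amacr, an isomerase of side chain shortening, fell from 175 and 150.2 to 75.6, 83.8 and 86.7 CPM (-0.99 ± 0.18, adjusted p = 0.00449; 0.0588 without GFP plasmid replicate 1).

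Transport genes split, with uptake carriers among the falls and efflux pumps among the rises. Of 19 tested, 4 rose and 5 fell (median -0.01), beside 8.5% and 7.39% over all genes. The falls were 2 without DDC STAT3KO replicate 1, 2 without replicate 2, 7 without replicate 3, and 1 and 2 without GFP plasmid replicate 1 and 2, and the rises were 2 without either control. Slco1a1 (chr6:141907282-141946962, minus strand), a sinusoidal anion importer, fell from 1199 and 950.03 to 38.5, 29.3 and 41.2 CPM, a 29.6-fold drop (-4.89 ± 0.44, adjusted p = 0.000209) that held in every fit. Slco1b2, an importer of the same family, fell from 2123 and 1802 to 692, 398 and 782 CPM (-1.65 ± 0.33, adjusted p = 0.00822; 0.0723 without GFP plasmid replicate 1). Slc10a1, the bile salt importer NTCP, stood at 696 and 756 CPM in controls and at 57.2, 82.4 and 392 CPM, with replicate 3 well above the other replicates of its group (-2.04 ± 0.59, adjusted p = 0.0372; 0.069 and 0.098 without replicate 1 and 2, 0.135 and 0.147 without either control). Abcb1a (chr5:8660077-8748575, plus strand), a multidrug efflux pump, went from 1.54 and 0.206 to 44.9, 35.8 and 46.6 CPM (5.57 ± 0.55, adjusted p = 0.000255) and held in every fit. Abcb4, the canalicular phospholipid flippase, rose from 275 and 235 to 764, 596 and 565 CPM (1.33 ± 0.39, adjusted p = 0.0373; 0.0854 and 0.0641 without DDC STAT3KO replicate 1 and 2, 0.169 and 0.225 without either control). The bile salt export pump gene Abcb11 stood at 786 and 538 CPM in controls and at 594, 653 and 866 CPM, overlapped and did not pass (adjusted p = 0.922).

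Many progenitor and biliary genes rose. Of 26 tested, 16 rose and none fell, with a median log2 fold change of 3.40, or 3.26 when genes without a count in 1 group take their bound. Between 12 and 18 rises were called with 1 DDC STAT3KO library left out (18 without replicate 3), and 6 and 4 without GFP plasmid replicate 1 and 2. Krt8 (chr15:101996698-102004482, minus strand) and Krt18, the keratin pair of simple epithelia, rose together: Krt8 from 259 and 216 to 4004, 2713 and 2616 CPM (13.1-fold, 3.71 ± 0.31, adjusted p = 0.000209) and Krt18 from 146 and 105 to 2066, 1159 and 1087 CPM (3.52 ± 0.37, adjusted p = 0.000326). Tnfrsf12a (chr17:23675445-23677468, minus strand), encoding Fn14, the TWEAK receptor known to drive progenitor expansion, rose from 7.81 and 7.36 to 103, 93.6 and 103 CPM (3.72 ± 0.37, adjusted p = 0.000255). All 3 stood far above controls in replicate 3 too, and their calls, like that of the annexin gene Anxa2 (4.54 and 4.33 CPM in controls, 539, 201 and 109.98 CPM), held in every fit.

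Other members of the list set replicate 3 apart. Sox9, the transcription factor of biliary identity, was at 3.01 and 2.13 CPM in controls and at 12.8, 14.1 and 4.11 CPM, so that replicate 3 lay close to the controls (2.02 ± 0.50, adjusted p = 0.0194; 2.38 without replicate 3). Its call was lost without DDC STAT3KO replicate 2 (0.057) and without either control (0.101 and 0.153). Spp1, encoding osteopontin, a product of both ductular cells and macrophages, was at 244, 226 and 2.32 CPM against 1.66 and 3.44 CPM, and replicate 3 lay inside the control range (5.95 ± 1.66, adjusted p = 0.0318; 0.0623 and 0.0645 without replicate 1 and 2, 0.208 and 0.159 without either control). Spp1, the lectin gene Lgals3 (0.512 and 0.619 CPM in controls, 42.3, 19.97 and 1.42 CPM) and Cd44 (0.192 and 0.756 CPM in controls, 23.4, 17.8 and 1.95 CPM) were high in replicates 1 and 2 and low in replicate 3, as were the summed Kupffer cell markers (32.8 and 41.9 CPM in controls, 362, 454 and 58.95 CPM). The part of those cells in these results was not tested. Cldn4, a tight junction gene, was at 0.128 and 0 CPM in controls and at 30.8, 11.9 and 3.52 CPM (edgeR adjusted p = 0.00511, 0.0589 without GFP plasmid replicate 2). Its ratio to the controls, which held 2 counts, was 255 (95% interval 70.3 to 2107), an interval that covers counting error only, while the DDC STAT3KO libraries themselves differed widely. The cholangiocyte markers Krt7 and Epcam were scarce: Krt7 was at or below 0.194 CPM in all 5 libraries, and Epcam was at 0.726, 0.636 and 0 CPM. Of 8 cholangiocyte markers tested, 7 had a positive fold change and 1 was called higher (3 without replicate 3). Their median log2 fold change was 2.61, or 1.36 with bounds. Summed levels were 70.8 and 71.1 CPM in controls and 62.4, 173 and 66.9 CPM in DDC STAT3KO libraries. The part of cholangiocytes in the progenitor result was not tested.

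Proteins of Mallory-Denk bodies and their chaperones gave 9 rises and no falls among 20 genes tested (median 1.22). There were 5 and 6 rises without DDC STAT3KO replicate 1 and 2, and 2 without either GFP plasmid library, and these counts include Krt8, Krt18 and Sqstm1 described above. Hsp90aa1, the inducible cytosolic HSP90, rose from 214 and 196 to 422, 376 and 416 CPM (0.98 ± 0.23, adjusted p = 0.0152; 0.106 and 0.135 without either control). Ubd, encoding the ubiquitin-like FAT10, was at 0 and 0.138 CPM in controls and at 56.7, 20.4 and 1.197 CPM, high in replicates 1 and 2 and low in replicate 3 (adjusted p = 0.0213; 0.159 and 0.128 without either control). Krt20, an intestinal keratin, was at 9.53, 10.1 and 0.0748 CPM and at 0 in both controls. Its call (adjusted p = 0.0379) was lost without DDC STAT3KO replicate 1 or 2 (0.0751 and 0.079) and without either control (0.179 and 0.17).

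Hippo-YAP targets, which respond to the tension and density of epithelial cells, gave 7 rises and 1 fall among 18 tested (median 0.95), with 1 and 2 rises without GFP plasmid replicate 1 and 2. Crim1, encoding a transmembrane protein that binds bone morphogenetic proteins, rose from 9.85 and 12.2 to 39.9, 45.1 and 44.6 CPM (1.97 ± 0.25, adjusted p = 0.000869) and held in every fit. Ajuba, a LIM-domain regulator of the pathway, was at 3.65 and 2.48 CPM in controls and at 36.2, 29.8 and 4.94 CPM, with replicate 3 only just above the controls (2.95 ± 0.69, adjusted p = 0.0155; 0.0992 and 0.135 without either control). The canonical targets Ccn1 (53.2 and 68.5 CPM in controls, 181, 188 and 36.7 CPM) and Ccn2 (1.66 and 2.27 CPM in controls, 4.79, 6.67 and 6.73 CPM) did not pass (adjusted p = 0.231 and 0.176), and replicate 3 lay below both controls for Ccn1, which passed without it (0.0376).

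Some replication licensing genes rose, whereas Mki67 and Top2a were high in replicates 1 and 2 alone. Of 35 cell cycle genes tested, 8 rose and none fell (median 2.24), and these were 6 MCM helicase subunits, Pcna and Ccnd1. Without replicate 3 the number was 26, with 5 without replicate 2 and 0 without either control. Mcm6 went from 3.07 and 2.2003 to 37.9, 52.7 and 16.2 CPM (3.75 ± 0.75, adjusted p = 0.00794; 0.0687 and 0.0871 without either control). Ccnd1, the G1 cyclin, went from 23.9 and 20.01 to 87.7, 204 and 139 CPM (2.71 ± 0.58, adjusted p = 0.0112; 0.0887 and 0.103 without either control), with every DDC STAT3KO library above every control. Mki67, the proliferation marker, stood at 2.56 and 5.02 CPM in controls and at 16.9, 35.4 and 0.823 CPM, so that replicate 3 lay below the controls (adjusted p = 0.182; 0.0287 without replicate 3). Top2a, the mitotic topoisomerase, showed the same order at 1.28 and 3.51 CPM in controls and at 22.4, 32.6 and 0.973 CPM (adjusted p = 0.0914; 0.00987 without replicate 3). Mcm6, Mki67 and Top2a ran in the same order over the DDC STAT3KO replicates as the summed Kupffer cell markers (362, 454 and 58.95 CPM) and the summed monocyte and macrophage markers (120.1, 259 and 42.8 CPM). The part of those cells in the result was not tested.

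Among 24 p53 targets 6 rose and 1 fell (median 0.66), beside 8.5% and 7.39% over all genes. There were 4 rises without DDC STAT3KO replicate 2 and 9 without replicate 3. Fewer than 6 rises were called with either control left out. Cdkn1a, the p21 inhibitor of cyclin-dependent kinases, was at 2.56 and 11.2 CPM in controls and at 66.6, 45.3 and 113 CPM, highest in replicate 3 (3.45 ± 0.71, adjusted p = 0.00882; 0.0802 without GFP plasmid replicate 1). Polk, a translesion polymerase, rose from 5.37 and 5.23 to 11.5, 13.5 and 19.8 CPM (1.49 ± 0.27, adjusted p = 0.00473; 0.0536 and 0.0569 without either control). Mdm2, the ubiquitin ligase that p53 induces to limit itself, was at 32.1 and 36.6 CPM in controls and at 35.4, 52.7 and 64.6 CPM and did not pass (adjusted p = 0.127; 0.033 without DDC STAT3KO replicate 1).

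NF-kB and chemokine genes gave 8 rises and 1 fall among 24 tested (median 1.56, or 1.07 with bounds), and 4 and 5 rises without GFP plasmid replicate 1 and 2. Ccl2, the monocyte chemoattractant, was at 0.3199 and 0.0688 CPM in controls and at 16.3, 20.1 and 5.39 CPM (6.09 ± 0.88, adjusted p = 0.00165). Relb and Nfkb2, the pair of subunits of the non-canonical arm, rose from 0.3199 and 0.688 to 6.58, 6.45 and 12.9 CPM (4.08 ± 0.59, adjusted p = 0.00167) and from 4.67 and 5.64 to 23.2, 27.1 and 29.5 CPM (2.37 ± 0.35, adjusted p = 0.00178), and were highest in replicate 3. Ccl2 was lowest in replicate 3 and followed the order of the summed Kupffer cell markers (362, 454 and 58.95 CPM), which Relb and Nfkb2 did not. The part of those cells in these results was not tested. These 3 calls and that of the adhesion molecule gene Icam1 (6.85 and 3.92 to 20.1, 29.5 and 35.8 CPM, 2.40 ± 0.38) held in every fit. Cxcl12 fell from 304 and 228 to 82.6, 147 and 89.2 CPM (-1.32 ± 0.30, adjusted p = 0.0147; 0.131 without GFP plasmid replicate 1).

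Of 21 immediate early genes tested, 5 rose and 1 fell (median -0.18), beside 8.5% and 7.39% over all genes. Fewer rises were called with either control left out. Klf6, a zinc-finger factor, rose from 11.3 and 12.8 to 90.3, 107 and 182 CPM (3.39 ± 0.36, adjusted p = 0.000347) and Ier3, a survival gene, from 0.384 and 0.481 to 5.37, 4.99 and 7.63 CPM (3.77 ± 0.46, adjusted p = 0.000745), with both calls held in every fit. The AP-1 genes divided: Fosl1 was at 0 and 0.138 CPM in controls and at 2.52, 2.54 and 2.24 CPM (5.04 ± 0.94, adjusted p = 0.0057; 0.0639 without GFP plasmid replicate 1), whereas Junb was lower at 159, 130.3 and 169 against 277 and 323 CPM (-0.97 ± 0.30, adjusted p = 0.0432). The Junb call was lost without DDC STAT3KO replicate 1 or 2 (0.0792 and 0.107) and without either control (0.14 and 0.22). Fos stood at 216 and 242 CPM in controls and at 67.01, 109 and 79.8 CPM and did not pass (adjusted p = 0.0567).

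Fibrosis and matrix genes gave 10 rises and no falls among 24 tested (median 1.93), 19 without replicate 3, and 3 and 2 without GFP plasmid replicate 1 and 2. Pdgfa, a mitogen for stellate cells, rose from 3.46 and 5.16 to 30.7, 32.05 and 14.4 CPM (2.58 ± 0.37, adjusted p = 0.00157), and its call held in every fit. Col4a1, a basement membrane collagen, went from 15.7 and 16.8 to 121, 93.5 and 66.2 CPM (2.52 ± 0.46, adjusted p = 0.00522; 0.0648 and 0.0586 without either control). Col1a1, the fibrillar collagen of stellate cells, was at 0.768 and 1.86 CPM in controls and at 11.8, 10.8 and 0.374 CPM, below both controls in replicate 3 (adjusted p = 0.149; 0.025 without replicate 3). The 14 stellate and fibroblast markers summed to 143 and 127 CPM in controls and 328, 507 and 164 CPM in DDC STAT3KO libraries, none passed in edgeR (9 had an unadjusted p under 0.05 and DESeq2 called 3), and 6 passed without replicate 3. Their part in the matrix result was not tested.

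Some interferon targets were higher than in controls. Of 50 tested, 11 rose and 1 fell, with a median of 0.74. The rises were 20 without replicate 3, 7 without replicate 1, and 1 without either control. Gbp2, a guanylate-binding GTPase, rose from 0.704 and 0.894 to 13.5, 10.8 and 7.18 CPM (3.71 ± 0.54, adjusted p = 0.00166, held in every fit). Irf7, an amplifier of the response, rose from 12.6 and 13.7 to 42.1, 38.5 and 21.8 CPM (1.38 ± 0.29, adjusted p = 0.0103; 0.105 and 0.0826 without either control). The exception was Gbp11, at 34.9 and 11.9 CPM in controls and 3.73, 2.04 and 0.374 CPM (-3.46 ± 0.75, adjusted p = 0.0116; 0.135 without GFP plasmid replicate 1), a member of a cluster of near-identical genes among which reads can be split. Isg15 and Gbp7, whose promoter windows are printed above, were at 6.59 and 5.71 CPM in controls and at 10.7, 9.26 and 5.84 CPM and at 8.83 and 12.4 CPM in controls and at 8.85, 13.3 and 18.2 CPM, overlapped in each case and did not pass (adjusted p = 0.408 and 0.502). The motif was in 6 of the 8 interferon targets called higher that matched the promoter table.

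Acute phase genes, the classic hepatocyte output of IL-6 and STAT3, divided: of 34 tested, 6 rose and 9 fell, with a median of -0.45. The counts were 4 and 6 without DDC STAT3KO replicate 1, the same without replicate 2, 8 and 11 without replicate 3, 1 and 3 without GFP plasmid replicate 1, and 3 and 2 without replicate 2. Saa1 (chr7:46740497-46742980, minus strand), serum amyloid A, fell from 31.9 and 71.99 to 1.597, 3.63 and 0.748 CPM, 25.3-fold (-4.66 ± 0.70, adjusted p = 0.00208). Serping1 (chr2:84765387-84775444, minus strand), the C1 inhibitor, fell from 697 and 629 to 236, 233 and 274 CPM (-1.42 ± 0.22, adjusted p = 0.00225). Both falls held in every fit, with no overlap. Fga, the fibrinogen alpha chain whose promoter holds the STAT motif, was at 4573 and 3775 CPM in controls and at 1358, 1728 and 2123 CPM (-1.27 ± 0.34, adjusted p = 0.0285). Itih4, a trypsin inhibitor chain, was at 1908 and 1688 CPM in controls and at 537, 522 and 1222 CPM (-1.24 ± 0.38, adjusted p = 0.0468). Both calls were lost without DDC STAT3KO replicate 1 (0.0763 and 0.12) or 2 (0.0603 and 0.116) and without either control (0.188 and 0.221 without the first, 0.109 and 0.157 without the second).

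The rises came from other members. Cd14, the lipopolysaccharide co-receptor, went from 0.704 and 0.756 to 59.95, 16.3 and 19.5 CPM (5.44 ± 0.76, adjusted p = 0.00137, held in every fit). It is also a monocyte gene, and the monocyte and macrophage markers summed to 40.2 and 53.01 CPM in controls and 120.1, 259 and 42.8 CPM in DDC STAT3KO libraries, a different order among replicates from that of Cd14. Their part in the result was not tested. Hp, encoding haptoglobin, which binds free haemoglobin, rose from 1945 and 1915 to 8121, 3931 and 3842 CPM (1.46 ± 0.36, adjusted p = 0.0204; 0.155 and 0.153 without either control). The STAT motif TTCNNNGAA was in 6 of the 22 acute phase genes that matched the promoter table, in none of the 4 called higher and in 2 of the 6 called lower. Steap4, the metalloreductase shown with it, was at 79.5 and 119 CPM in controls and 192, 210.4 and 178 CPM and did not pass (adjusted p = 0.0595; 0.0493 without replicate 3).

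Signalling genes of the IL-6 and STAT3 list gave 5 rises and 7 falls among 26 tested (median 0.16), 4 and 3 falls without DDC STAT3KO replicate 1 and 2, and 1 rise with 4 and 3 falls without either control. Pim1 and Pim3, serine kinases induced by STAT factors, fell from 18.8 and 23.2 to 4.06, 3.54 and 2.54 CPM (-2.62 ± 0.36, adjusted p = 0.00123) and from 238 and 388 to 25.4, 53.1 and 55.9 CPM (-2.81 ± 0.43, adjusted p = 0.00227). Lifr, the receptor for leukaemia inhibitory factor that pairs with gp130, fell from 623 and 467 to 72.3, 117 and 179 CPM (-2.15 ± 0.32, adjusted p = 0.002). All 3 falls held in every fit. Bcl2l1, encoding the survival protein BCL-XL, rose from 31.4 and 46.8 to 105, 76.4 and 115 CPM (1.34 ± 0.24, adjusted p = 0.00465; 0.0712 without GFP plasmid replicate 1). Il22ra1, the epithelial IL-22 receptor chain, rose from 2.43 and 1.17 to 11.95, 12.9 and 22.7 CPM (3.13 ± 0.56, adjusted p = 0.00458; 0.0674 without GFP plasmid replicate 2).

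Many growth hormone and male-biased liver genes fell. In the liver growth hormone acts through its receptor and STAT5, and its pulses in males keep the male-biased genes on. Of 17 growth hormone and STAT5 genes 9 fell and none rose (median -1.68), and of 20 male-biased genes 14 fell and none rose (median -2.97). Hsd3b5 and Cyp7b1 count in both lists, and the male-biased gene Slco1a1 is also on the transport list. The falls were 8 and 7 in the first list and 11 and 11 in the second without GFP plasmid replicate 1 and 2, and 7 to 10 and 13 to 14 with 1 DDC STAT3KO library left out (1 male-biased gene rose without replicate 3). Ghr, the growth hormone receptor, fell from 1131 and 1000.3 to 147, 212 and 336 CPM (-2.20 ± 0.34, adjusted p = 0.0024). Igfals, encoding the acid-labile subunit that carries IGF1 in blood, fell from 169 and 149 to 41.2, 57.7 and 49.3 CPM (-1.68 ± 0.24, adjusted p = 0.00137). Igf1 itself fell from 715 and 759.6 to 235, 293 and 378 CPM (-1.29 ± 0.25, adjusted p = 0.00671; 0.0595 without GFP plasmid replicate 2). Egfr, the epidermal growth factor receptor, fell from 924 and 974 to 132, 227 and 167 CPM (-2.44 ± 0.33, adjusted p = 0.00114). The groups were apart for each of these genes, and apart from Igf1 the calls held in every fit.

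Nudt7, a peroxisomal coenzyme A hydrolase, fell from 767 and 644 to 123, 103 and 94.5 CPM (-2.72 ± 0.27, adjusted p = 0.000255). Susd4, a complement regulator, fell from 50.3 and 58.2 to 8.71, 8.94 and 12.3 CPM (-2.45 ± 0.28, adjusted p = 0.000506), and both calls held in every fit. The Mup genes on the list, which encode urinary pheromone carriers, fell too, but they are near-identical copies and the split of reads between them is uncertain. Among 16 female-biased genes 2 rose and none fell (median 1.77, or 1.29 with bounds), beside 8.5% and 7.39% over all genes. Without replicate 3 there was 1 rise, and fewer than 2 were called with either control left out. Abcd2, a peroxisomal transporter, was at 6.27 and 2.75 CPM in controls and at 9.92, 26.5 and 92.7 CPM, the highest in replicate 3 (3.24 ± 0.78, adjusted p = 0.018; 0.0795 and 0.151 without either control). All libraries carried the Y-linked Ddx3y (102 and 105 CPM in controls, 74.6, 71.995 and 119.9 CPM) and almost no Xist (at most 0.242 CPM), and none of the 4 sex chromosome transcripts tested passed in edgeR or DESeq2, nor had an unadjusted p under 0.05.

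Genes of amino acid catabolism were among the falls: 13 of 30 urea cycle and amino acid genes fell and none rose (median -1.11). The falls were 9 and 7 without DDC STAT3KO replicate 1 and 2, 19 without replicate 3, and 6 and 1 without GFP plasmid replicate 1 and 2. Kynu, the kynureninase of tryptophan breakdown, fell from 235 and 254 to 87.3, 101 and 132 CPM (-1.20 ± 0.20, adjusted p = 0.00367, held in every fit). Tdo2, the entry enzyme of that pathway, fell from 2348 and 2916 to 874, 582 and 1056 CPM (-1.65 ± 0.32, adjusted p = 0.0064; 0.0667 without GFP plasmid replicate 2). Otc, a urea cycle enzyme, fell from 634 and 612 to 209.9, 249.5 and 401 CPM (-1.12 ± 0.26, adjusted p = 0.0147; 0.0955 and 0.0838 without either control). Cps1, the entry enzyme of the cycle, was at 5867 and 5707 CPM in controls and at 2183, 4363 and 7347 CPM and did not pass (adjusted p = 0.68).

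Of 27 glucose genes tested, 3 rose and 6 fell (median 0.10), beside 8.5% and 7.39% over all genes. No rise and 1 fall were called without DDC STAT3KO replicate 1, and the same without replicate 2, and 1 and 0 falls without either control. Pck1, the gatekeeper of gluconeogenesis, was at 3323 and 4061 CPM in controls and 822, 722 and 2355 CPM (-1.51 ± 0.42, adjusted p = 0.0326). G6pc, which releases free glucose, was at 447 and 285 CPM in controls and at 28.02, 24.2 and 149.9 CPM (-2.44 ± 0.71, adjusted p = 0.0374). Replicate 3 was the closest to controls for both, and their calls were lost without replicate 1 (0.0882 and 0.0995), without replicate 2 (0.0793 and 0.0944) and without either control (0.113 and 0.193 without the first, 0.173 and 0.0975 without the second).

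Lipid genes passed at shares near or below those of all genes. Of 30 fatty acid oxidation and PPARa targets 2 rose and 1 fell (median -0.38), beside 8.5% and 7.39% over all genes, with 2 and 7 without replicate 3 and 0 without either control. Cd36, a fatty acid importer, rose from 9.02 and 11.8 to 63.5, 77.9 and 55.7 CPM (2.66 ± 0.62, adjusted p = 0.0149; 0.136 and 0.0963 without either control). Slc27a2, another one, fell from 1144 and 1276 to 354, 224 and 456 CPM (-1.81 ± 0.39, adjusted p = 0.0112; 0.0596 and 0.0789 without either control). Cyp4a14, a PPARa target, was at 71.2, 141 and 2527 CPM against 6.91 and 27.8 CPM, with replicate 3 far above every other library (adjusted p = 0.108). Of 30 sterol and fatty acid synthesis genes 2 rose (median 0.64), the acetyl-CoA carboxylase gene Acaca and the lipase gene Pnpla3, and none passed without DDC STAT3KO replicate 2 or 3 or without either control (Acaca 0.0506, 0.0739, 0.19 and 0.213).

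Some zonated genes of the portal side fell. The periportal list shares Hal, Sds, Ass1, Asl, Arg1 and Gls2 with the urea cycle and amino acid list. It also shares Pck1 with the glucose list and Cyp2f2 with the cytochrome P450 list, so these counts are not independent. Of 20 periportal genes 10 fell and 1 rose (median -1.11), with 6 falls without replicate 2, 2 falls without either control and 12 without replicate 3. Of 22 pericentral genes 2 fell and 1 rose (median -0.07), beside 7.39% lower and 8.5% higher over all genes. No pericentral call was made without DDC STAT3KO replicate 1 or 2, and these calls also rested on both controls. Sult5a1, a sulfotransferase, fell from 27.9 and 25.9 to 1.79, 1.77 and 5.31 CPM (-3.23 ± 0.53, adjusted p = 0.003, held in every fit), and Slc38a3, a glutamine transporter, from 2849.9 and 2705 to 548, 925 and 1021 CPM (-1.74 ± 0.35, adjusted p = 0.00802; 0.0588 and 0.0513 without either control). Glul, the glutamine synthetase of the innermost pericentral hepatocytes, was at 382 and 427 CPM in controls and 140.1, 103 and 233 CPM and did not pass (adjusted p = 0.225). The difference between the 2 lists was not tested.

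Some hepatocyte identity genes fell. The 12 hepatocyte markers moved with them, with 11 negative fold changes (median -0.60), also beside the falls of the metabolic lists above, and their part was not tested. Of 24 transcription factors 6 fell and none rose (median -0.54), with 3 without DDC STAT3KO replicate 1 or 2, 8 without replicate 3, and 1 and 0 without GFP plasmid replicate 1 and 2. Cebpa, a factor of mature hepatocytes, fell from 482 and 534 to 253, 211 and 103 CPM (-1.43 ± 0.33, adjusted p = 0.0156; 0.0787 and 0.102 without either control). Hnf4a, the master regulator of hepatocyte fate, was at 644 and 798 CPM in controls and 368, 536 and 966 CPM, overlapped and did not pass (adjusted p = 0.693). Of 32 secreted proteins 5 fell and none rose (median -0.50), beside 7.39% lower and 8.5% higher over all genes. Without replicate 3 there were 7 falls and 1 rise. Fewer than 5 falls were called with either control left out. Serpina1c, an alpha-1-antitrypsin copy with near-identical neighbours, fell from 431 and 375 to 85.9, 56.1 and 91.7 CPM (-2.37 ± 0.32, adjusted p = 0.00115, held in every fit). Alb, encoding albumin, was at 54064 and 58984 CPM in controls and 67264, 72954 and 87721 CPM and did not pass (adjusted p = 0.718).

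Genes of ATF4, the factor of the amino acid and integrated stress response, were among the rises. Of 27 ATF4 targets 8 rose and none fell (median 0.86), with 2 and 1 without GFP plasmid replicate 1 and 2, and 3 falls beside 8 rises without replicate 3. Of 23 unfolded protein response genes none passed in edgeR or DESeq2 (median 0.19; 1 had an unadjusted p under 0.05), and 1 fell without replicate 3. The difference between the lists was not tested. Aldh18a1, the first enzyme of proline synthesis, rose from 0.06399 and 0.206 to 6.29, 4.95 and 2.09 CPM (5.00 ± 0.67, adjusted p = 0.00105, held in every fit). Gdf15, a stress hormone, rose from 54.9 and 54.4 to 94.3, 93.2 and 169 CPM (1.12 ± 0.24, adjusted p = 0.0119; 0.0986 and 0.0972 without either control). Fgf21 was at 0.9598 and 1.03 CPM in controls and 14.1, 2.18 and 39.4 CPM, lowest in replicate 2 (4.20 ± 1.15, adjusted p = 0.0297; 0.185 and 0.172 without either control). Slc7a11, the cystine importer, was at 0 and 0.0688 CPM in controls and 16.8, 1.54 and 1.87 CPM, highest in replicate 1 (7.39 ± 1.73, adjusted p = 0.0157; 0.141 and 0.101 without either control). These 2 were the called genes of the list with the ATF4 motif, of 8 called. Hspa5, the chaperone BiP, was at 1027 and 921 CPM in controls and at 1793, 1477 and 952 CPM (adjusted p = 0.268). Clock genes gave 5 falls and no rises among 21 tested (median -0.42; 8 without replicate 3, 3 without replicate 1, 0 and 1 without GFP plasmid replicate 1 and 2), led by Bhlhe41 (4.93 and 5.98 to 1.49996, 1.54 and 0.599 CPM) and Dbp (96.6 and 112 to 25.6, 34.7 and 13.6 CPM). The hour of collection was not stated.

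Next to the 2 DDC libraries that kept STAT3, no gene passed. Of 14339 genes tested with edgeR, 0 (0%) had an adjusted p under 0.05, and 803 had an unadjusted p under 0.05. DESeq2 gave an adjusted p to 1288 genes, after its filter on low means, and called 19 of them (1.48%), 14 lower and 5 higher in DDC STAT3KO. Without DDC replicate 1 edgeR called only Igsf23 (log2 fold change 6.09 ± 0.61, adjusted p = 0.0086), and without DDC replicate 2 only Saa1 (-5.60 ± 0.66, adjusted p = 0.0463). Krt8 (3542 and 2993 CPM in DDC, 4004, 2713 and 2616 CPM in DDC STAT3KO), Tnfrsf12a (125 and 74.5 CPM in DDC, 103, 93.6 and 103 CPM), Gsta1 (128 and 128 CPM in DDC, 246, 148 and 70.6 CPM), Slco1a1 (44.7 and 34.7 CPM in DDC, 38.5, 29.3 and 41.2 CPM) and Cyp7b1 (55.9 and 35.6 CPM in DDC, 59.8, 38.7 and 58.6 CPM) overlapped between the 2 groups. Their fold changes against DDC were -0.07 ± 0.26, -0.00 ± 0.31, 0.28 ± 0.56, -0.13 ± 0.41 and 0.19 ± 0.40 (log2 ± SE), with unadjusted p-values of 0.789, 0.997, 0.625, 0.757 and 0.637, and a p that misses the threshold does not show that the levels are equal.

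Of the 19 genes DESeq2 called against DDC, 9 were acute phase genes. Stat3 itself was at 149.995 and 112 CPM in DDC and 62.03, 56.2 and 87.2 CPM in DDC STAT3KO libraries (DESeq2 log2 fold change -0.94 ± 0.24, adjusted p = 0.0136; edgeR -0.94 ± 0.22, adjusted p = 0.853). Saa1 was at 99.2 and 23.02 CPM in DDC and at 1.597, 3.63 and 0.748 CPM (DESeq2 -4.93 ± 0.62, adjusted p = 2.64e-12; edgeR -4.90 ± 0.71, adjusted p = 0.112). Serping1 was at 442 and 396 CPM in DDC and at 236, 233 and 274 CPM (DESeq2 -0.76 ± 0.19, adjusted p = 0.0121), and the complement gene C4b was at 1793 and 1569.6 CPM in DDC and at 760.2, 842 and 754 CPM (DESeq2 -1.10 ± 0.19, adjusted p = 5.08e-06). Fga was at 4853 and 2351 CPM in DDC and at 1358, 1728 and 2123 CPM, Steap4 at 689 and 294 CPM in DDC and at 192, 210.4 and 178 CPM, and Lbp, the lipopolysaccharide-binding protein gene, at 238 and 135 CPM in DDC and at 106, 86.7 and 106 CPM, with DESeq2 adjusted p-values of 0.0467, 0.00436 and 0.0237. For each of these 7 genes every DDC STAT3KO library lay below both DDC libraries. Steap4 and Lbp thus stood between controls (69.7 and 76.2 CPM for Lbp) and DDC, while Saa1 and Serping1 stood below the controls as well.

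Of the 34 acute phase genes tested, 30 had a negative fold change against DDC (median -0.74, against 0.01 over all genes), and in 18 the 3 DDC STAT3KO libraries lay below both DDC libraries. Over all genes such a separation was seen in 9% downward and in 9.34% upward, and 2 of the 34 were separated upward. None passed edgeR's test, and 17 had an unadjusted p under 0.05. In some other lists the downward separation was seen in 6 of 24 matrix genes, 5 of 24 NF-kB and chemokine genes and 4 of 17 bile acid synthesis genes. It was also seen in 4 of 19 iron genes, 4 of 26 progenitor genes and 4 of 26 IL-6 and STAT3 signalling genes. Hippo-YAP targets had 3 of 18 separated downward and transport genes 3 of 19. The stellate and fibroblast markers moved with the matrix genes: all 14 had a negative fold change against DDC (median -0.71) and 5 were separated downward. Their part was not tested. Glucose genes had 8 of 27 separated upward, secreted proteins 8 of 32 and Mallory-Denk body and stress proteins 4 of 20. Hepatocyte markers moved the same way, with 4 of 12 separated upward, 1 of 12 negative and a median of 0.48, and their part was not tested. Serpina1a, an alpha-1-antitrypsin copy, was among the 5 DESeq2 called higher (295 and 230.4 CPM in DDC, 760.3, 695 and 551 CPM; 1.34 ± 0.37, adjusted p = 0.0317), as was the glycolytic pyruvate kinase gene Pklr (92.3 and 107 CPM in DDC, 174, 172 and 324 CPM; 1.16 ± 0.29, adjusted p = 0.0136). Socs3, the feedback inhibitor that STAT3 induces, was at 32.6 and 15.1 CPM in DDC and 9.53, 10.99 and 6.13 CPM and did not pass edgeR (unadjusted p = 0.000963, adjusted p = 0.853).

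**Figure D5:**
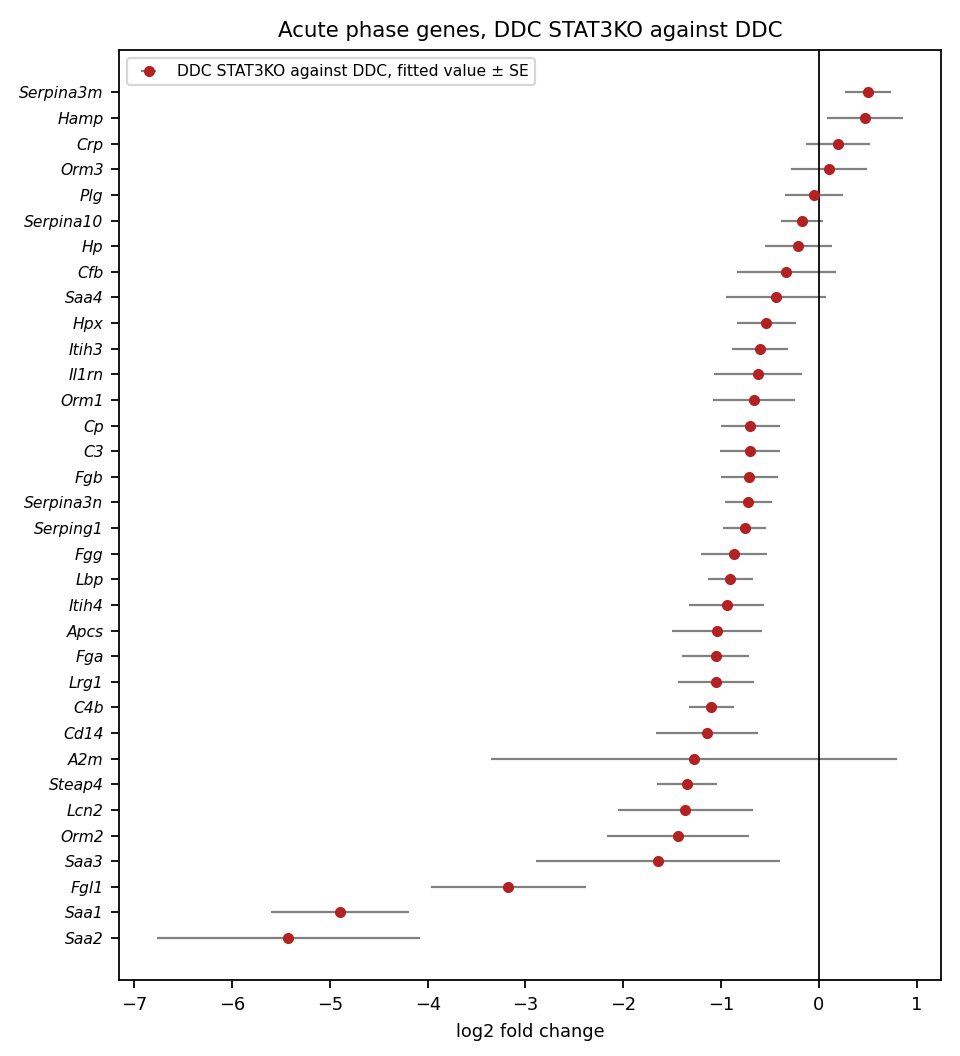
Log2 fold change of the 34 acute phase genes tested in DDC STAT3KO against DDC hepatocytes, with the standard error as bars (edgeR, n = 3 and 2). Most points lie left of 0, Saa2 (-5.43) and Saa1 (-4.90) farthest, and none passed the test across all genes.

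The libraries labelled IL-6 STAT3KO share the floxed allele and the Cre virus with DDC STAT3KO by their labels, though their Stat3 counts overlapped those of the controls. Against them 1410 of 14339 genes passed (9.83%), 692 higher (4.83%) and 718 lower (5.01%) in DDC STAT3KO. With DDC STAT3KO replicate 1, 2 or 3 left out the counts were 430, 602 and 921 higher and 457, 543 and 1000 lower, and with IL-6 STAT3KO replicate 1, 2 or 3 left out they were 307, 456 and 232 higher and 431, 542 and 370 lower. DDC STAT3KO and IL-6 STAT3KO differed at once in diet, IL6 plasmid and plasmid injection, and the parts these played cannot be told apart. The words with IL-6 and with DDC name these groups only. Some genes that rose against GFP plasmid stood apart here too. Krt8 was at 391, 489 and 469 CPM with IL-6 and 4004, 2713 and 2616 CPM with DDC (2.79 ± 0.25, adjusted p = 9.54e-05), and Tnfrsf12a at 4.703, 7.202 and 5.13 CPM with IL-6 and at 103, 93.6 and 103 CPM (4.14 ± 0.32, adjusted p = 4.09e-05). Anxa2 was at 8.04, 26.9 and 10.96 CPM with IL-6 and at 539, 201 and 109.98 CPM (4.21 ± 0.59, adjusted p = 0.00131). Sprr1a, a cornified envelope gene also known from injured epithelia and nerve, was at 0.309, 1.49 and 0.117 CPM with IL-6 and at 136, 86.4 and 27.7 CPM (7.03 ± 0.77, adjusted p = 0.000495). These 4 calls held whichever library was left out. Cyp2b10 was at 26.1, 25.6 and 10.3 CPM with IL-6 and at 104, 91.9 and 1367 CPM (4.65 ± 1.08, adjusted p = 0.0198), a call lost with any 1 of the 3 IL-6 libraries left out. Serpina7, the thyroxine-binding globulin gene, was at 5.01, 9.93 and 7.697 CPM with IL-6 and at 115, 32.003 and 163 CPM (3.77 ± 0.99, adjusted p = 0.0329), and its call was lost without DDC STAT3KO replicate 1 or 3 or any 1 IL-6 library.

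Most interferon targets were lower in DDC STAT3KO than in IL-6 STAT3KO hepatocytes. Of 50 tested, 41 fell and none rose (median -2.92, against 0.03 over all genes), and 37 to 40 fell with 1 library left out. Tgtp1, an interferon-induced GTPase with a near-identical neighbour Tgtp2, was at 627, 498 and 758 CPM with IL-6 and 6.24, 5.36 and 4.56 CPM with DDC (-6.86 ± 0.53, adjusted p = 4.09e-05). Igtp, another of these GTPases, was at 989, 585 and 1048 CPM with IL-6 and at 21.3, 20.4 and 19.98 CPM (-5.41 ± 0.33, adjusted p = 8.61e-06). Gbp7 was at 179, 131 and 262 CPM with IL-6 and at 8.85, 13.3 and 18.2 CPM (-3.83 ± 0.31, adjusted p = 5.05e-05), and Isg15 at 36.1, 35.8 and 79.1 CPM with IL-6 and at 10.7, 9.26 and 5.84 CPM (-2.54 ± 0.35, adjusted p = 0.00117). In each of these genes the groups were apart. Dendritic cell markers summed to 1439.8, 929 and 2140.4 CPM with IL-6 and 56.5, 120.02 and 12.9 CPM with DDC. Of the 6 tested, 2 fell and 3 had a negative fold change (median 0.03), so the sum does not describe every marker. The part of dendritic cells in the result was not tested.

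Some metabolic lists held many falls in DDC STAT3KO against the libraries labelled IL-6 STAT3KO, where 5.01% of all genes fell, and others held few. The difference between lists was not tested. Of 30 sterol and fatty acid synthesis genes none passed in edgeR (median 0.33; 5 had an unadjusted p under 0.05 and DESeq2 called 0), of 30 fatty acid oxidation genes 1 rose and 1 fell (median -0.11), and of 27 glucose genes 2 fell (median -0.02). Of 30 urea cycle and amino acid genes 14 fell (median -0.97) and all 30 had a negative fold change. The number called ran from 5, without IL-6 STAT3KO replicate 2, to 20, without DDC STAT3KO replicate 3. Of 20 male-biased genes 12 fell (median -2.33; 9 to 12 with 1 library left out), and Cyp7b1 was at 381, 327 and 498 CPM with IL-6 and 59.8, 38.7 and 58.6 CPM with DDC (-2.94 ± 0.38, adjusted p = 0.000868). Progenitor genes gave 8 rises and no falls of 26 tested (median 2.53; 17 without DDC STAT3KO replicate 3, 5 without IL-6 STAT3KO replicate 3), and immediate early genes 9 rises and no falls of 21 (median 0.80; 5 and 4 without IL-6 STAT3KO replicate 2 and 3). Klf6 was at 15.7, 20.3 and 15.04 CPM with IL-6 and 90.3, 107 and 182 CPM with DDC (2.89 ± 0.30, adjusted p = 0.000217). ATF4 targets gave 8 rises and 1 fall (median 1.14; 5 rises without DDC STAT3KO replicate 1, 3 without IL-6 STAT3KO replicate 1 or 3). By contrast, of the 35 cell cycle genes none passed in edgeR (median 0.05; 4 had an unadjusted p under 0.05, DESeq2 called 1, and edgeR called 2 without DDC STAT3KO replicate 3), and NRF2 targets gave 4 rises and 1 fall (median 0.33; 1 to 5 rises with 1 library left out): Nqo1 was at 18.6, 28.4 and 42.2 CPM with IL-6 and 24.6, 27.3 and 24.2 CPM with DDC (adjusted p = 0.623).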

How the data were processed

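Bulk RNA-seq of sorted mouse liver cells was analysed from the table of raw counts per gene that the authors deposited for 13 hepatocyte libraries (13625040 to 18428988 counts each). Per the submitters' processing notes STAR, HTSeq, DESeq2 and the mm10 genome were used, with versions and strand setting not given in the sources used here. Libraries were prepared from total RNA with a TruSeq kit, per the labels' protocols. The separate immune cell table was not used here. No gene in the table totals fewer than 10 counts. The EGFP row was left out of library totals and tests.

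Genes were filtered with filterByExpr by group, scaled by TMM and tested with edgeR's quasi-likelihood test (edgeR 4.0.16, R 4.3.3) in a fit to all 13 libraries, with Benjamini-Hochberg adjustment over 14339 genes and a threshold of 0.05. The biological coefficient of variation was 31.3% with 8 residual degrees of freedom. The procedure was tested on simulated data. The log2 fold changes are edgeR's, each ± is an approximate standard error taken from the F statistic, and levels are CPM of the scaled library. CPM values do not correct for gene length, so levels are compared between libraries and not between genes. Alternatives were DESeq2 1.42.0, median-of-ratios factors, no filter, only the compared groups, a replicate block, and each library left out.

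The named genes were 9 chosen whatever their result (such as Stat3, Socs3, Sox9 and Alb), the 12 highest and 12 lowest fold changes among called genes averaging 20 CPM or more whose groups do not overlap, the 6 largest gains and 6 largest losses of level, up to 4 genes per list with the smallest adjusted p (2 where none passed), and up to 6 genes in each direction in the comparisons with DDC and IL-6 STAT3KO. Other genes, among them Nqo1, Txnrd1, Ugdh, Cyp7a1, Ghr, Spp1, Slc7a11, Mki67, Col1a1, Igsf23 and the genes DESeq2 called, were named after their values were seen. The 32 gene lists, the 11 marker lists and the comparison itself were chosen with earlier results of these data known. Promoters were matched by symbol to the RefSeq table of GRCm38.p6, and gene coordinates are those of the same build. Some results on single genes are not reported here.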

Additional observations from a re-analysis of the deposited data

Results flagged for a closer look

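The count table holds a row for EGFP, which no comparison used. It was at 2.18 and 2.41 CPM in the GFP plasmid libraries (34 and 35 counts) and at 1185 and 1227.8 CPM in the DDC libraries (22357 and 27571 counts), whose virus carried GFP. In DDC STAT3KO, whose virus carried Cre, replicate 1 held 1 count and replicates 2 and 3 held 0. IL-6 replicate 3, of a group not compared here, held 7795 counts (486 CPM), against 117 and 93 counts in the other IL-6 libraries. Whether the row covers the GFP of the plasmid is not stated, so the low values of the GFP plasmid libraries do not show how much of that transcript was present. A signal above that of the Cre libraries in data outside the main measurement is why these 4 values are given, and the floor of 3 counts corresponds to 0.145, 0.136 and 0.224 CPM in the DDC STAT3KO libraries.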

How the results depend on the processing

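Against GFP plasmid, the 1219 higher and 1059 lower genes became 409 and 386 when only the compared groups were fitted, and 209 to 1908 and 273 to 1522 with 1 library left out. Against DDC, the count of 0 became 19 with DESeq2 and 0 to 1 with 1 library left out. Against IL-6 STAT3KO, 692 higher and 718 lower became 220 and 338 when only the compared groups were fitted, and 232 to 921 and 370 to 1000 with 1 library left out. The fits to fewer libraries have fewer degrees of freedom. With DESeq2, median-of-ratios factors or no filter the counts against GFP plasmid and IL-6 STAT3KO stayed within 1.5 times of the values reported, at 1775, 1200 and 1121 higher and 1353, 1073 and 942 lower against GFP plasmid.

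The groups share replicate numbers, which the labels do not tie to an animal or day. Deviations of same-numbered samples from their group means correlated at 0.01 and 0.08 against GFP plasmid and at -0.07 and 0.00 against DDC. Against IL-6 STAT3KO they correlated at -0.18, 0.29 and 0.03. In a group of 2 libraries the deviations mirror each other, so these values cannot tell whether a number marks a shared animal or day. With the replicate block 1365 genes were higher and 1149 lower against GFP plasmid, 0 passed against DDC, and 641 were higher and 734 lower against IL-6 STAT3KO.

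Of the 141 named genes in the comparison with GFP plasmid, 70 and 68 lost their call without GFP plasmid replicate 1 and 2, 41 when only the compared groups were fitted, 16, 15 and 4 without DDC STAT3KO replicate 1, 2 and 3, and 2 with DESeq2. None that passed reversed. Among genes that did not pass, the log2 fold change of Il6 ran from -3.39 to 0 with 1 library left out (0 without GFP plasmid replicate 2), that of Il6ra from -0.82 to 0.48 (0.48 without the same library), that of Il6st from -0.23 to 0.086 (0.086 without DDC STAT3KO replicate 1) and that of Alas1 from -0.32 without DDC STAT3KO replicate 3 to 1.55 without GFP plasmid replicate 2, with -0.057 without GFP plasmid replicate 1. The cause of these turns was not tested. The 2 control libraries are the main limit on these calls. Genes near 0 in a group are limited by depth, where 3 counts correspond to 0.134 to 0.224 CPM.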
